A study of Homo sapiens with 12 samples.

Results

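The genes described here encode enzymes that remove superoxide and peroxide, together with a protein that supplies peroxiredoxins with electrons. They are the superoxide dismutases SOD1 and SOD2, catalase (CAT), the peroxiredoxins PRDX1, PRDX2, PRDX3, PRDX4, PRDX5 and PRDX6, and thioredoxin (TXN). The 10 genes were chosen by name, with earlier results of these data known, and all 10 were found among the 32077 genes of the count table. PC3 and DU145, established human prostate cancer cell lines listed as wild type, were cultured for 48 h in medium with 2.5 µM pentamidine, an antiprotozoal diamidine, or with vehicle. Each of the 4 groups (PC3 vehicle, PC3 pentamidine, DU145 vehicle and DU145 pentamidine) had 3 samples of mRNA enriched with oligo(dT) and sequenced. The comparisons ask what pentamidine treatment changed in each line, whether the change differed between the lines, and how the lines differed without the drug. Total counts ran from 13514195 to 15131436 per sample.

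Superoxide leaks from the respiratory chain and from oxidases, and superoxide dismutases turn it into hydrogen peroxide, SOD1 in the cytosol and intermembrane space and SOD2 in the mitochondrial matrix. Hydrogen peroxide is then removed by catalase in peroxisomes and by peroxiredoxins in the cytosol, mitochondria, endoplasmic reticulum and peroxisomes. Most peroxiredoxins are reduced again by thioredoxin, which thioredoxin reductase recharges with NADPH, and tumour cells are known to rely on these enzymes under oxidative stress.

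Markers of the cells were read before the results, and some went against what is known of the lines. EPCAM, an epithelial adhesion protein, had at most 2 counts in any sample, and CDH1, which encodes E-cadherin, had at most 10, although DU145 cells are known to carry both proteins. The keratin KRT8 had a mean CPM (normalised counts per 1000000 counts of a library) of 2707 ± 89.3 (SD, n = 3) in DU145 vehicle samples and 20.2 ± 1.51 in PC3 vehicle samples, and KRT18 had 914 ± 23.6 and 155 ± 14.2. The low KRT8 value in samples labelled PC3 was also counted among the markers that went against the labels. The keratins moved with the drug: KRT8 by a log2 fold change of -0.56 in DU145 (adjusted p 1.9e-23) and -0.22 in PC3 (0.0868, called at 0.0121 with all 12 samples in one fit), and KRT18 by -0.39 in DU145 (1.1e-15) and 0.35 in PC3 (6.0e-04). Their interactions were 0.34 (adjusted p 0.00279) and 0.74 (3.0e-08). The 4 epithelial markers, of which 2 could be tested, summed to 165, 168 and 192 CPM in PC3 vehicle samples, 224, 221 and 196 in PC3 pentamidine samples, 3684, 3656 and 3521 in DU145 vehicle samples and 2560.1, 2499 and 2519 in DU145 pentamidine samples. KRT18 was the most abundant of them in PC3 and KRT8 in DU145. SOD2, described below, also fell in DU145, and the part of these markers in that result was not tested. KLK3, an androgen target, had at most 2 counts, PTPRC of blood cells at most 1 and PECAM1 of endothelium at most 10, while the fibroblast collagen COL1A1 reached 40 counts in DU145 vehicle samples. The methods of the study state that the lines were authenticated by short tandem repeats, and that PC3 and DU145 lack the KLK3 protein is known. Which cells gave the RNA was not tested further, so PC3 and DU145 stand throughout for the samples labelled with those names.

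The members together took a small share of all counts in each group. That share was 0.229% ± 0.015 (SD, n = 3) in PC3 vehicle samples and 0.216% ± 0.0042 in PC3 pentamidine samples. In DU145 it was 0.253% ± 0.0031 with vehicle and 0.224% ± 0.0048 with pentamidine. The DU145 samples did not overlap (0.249% to 0.255% and 0.220% to 0.229%), a difference that was not tested. Within a group the coefficient of variation of a member's CPM ran from 0.71% to 11%, with a median of 3.3%. The highest was that of PRDX1 in PC3 vehicle samples. All 10 members passed the filter on low counts in every comparison, with 443 to 11095 counts per sample. CPM are shares of a library, so a change in the RNA a cell holds and a change in the number of cells cannot be told apart. Nothing in the labels says that the 3 samples of a group came from separate cultures, and captions of the study's figures with sequencing panels speak of independent experiments without naming the sequenced samples. The p-values measure the spread between these samples, which may be technical.

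**Figure D1:**
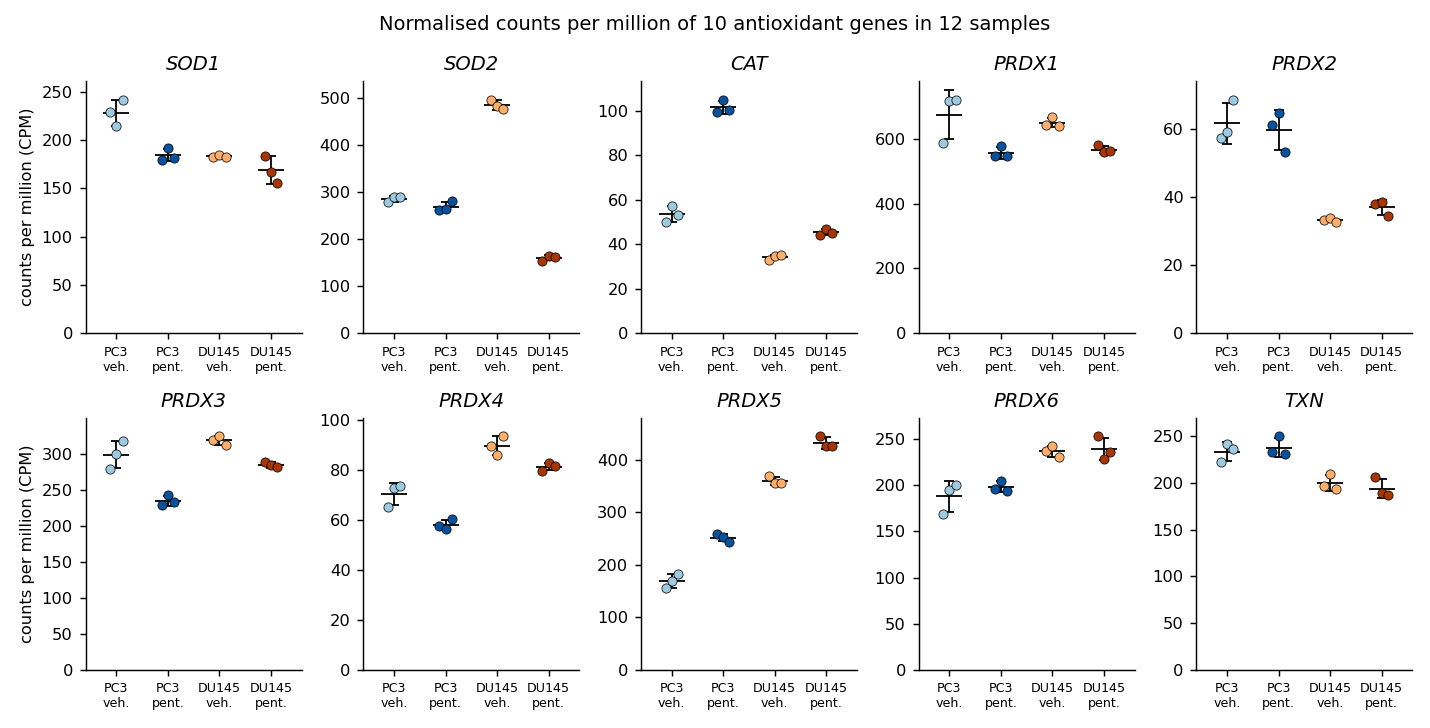
Normalised counts (CPM, linear axis from 0) of each of the 10 genes in the 12 samples, by group; points are samples, horizontal bars group means and whiskers the SD. SOD2 fell from 477 to 497 CPM in DU145 vehicle samples to 154 to 164 CPM with pentamidine, whereas CAT and PRDX5 were higher in every pentamidine sample than in every vehicle sample of the same line.

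A gene was called changed when its p-value from edgeR's quasi-likelihood test, adjusted by Benjamini-Hochberg over all genes tested, was below 0.05. The study's own threshold also asked for an absolute log2 fold change above 1, which in PC3 was met by 0 members, with DESeq2 too, and by 4.75% of genes. In PC3 cells 6 of the 10 members were called, beside 43.4% of all 13861 genes tested, with 2 higher (21.7% of all genes were called higher) and 4 lower (21.7% lower). In DU145 cells 7 were called, beside 34.0% of 14313 genes, with 2 higher (17.2% of all genes) and 5 lower (16.8%). The samples of the groups did not overlap for 6 members in PC3, where that held for 52.1% of genes, and for 7 in DU145, where it held for 44.0% of genes. With so many genes moving in both lines, the counts say little about the members as a set, and their median absolute log2 fold change was 0.27 in PC3 and 0.16 in DU145 beside 0.24 and 0.16 over all genes. Of the members called in both lines, 2 rose in both, 4 fell in both and 0 moved in opposite directions. Of the 13125 genes tested in both lines 22.0% were called in both, 9.94% higher, 9.62% lower and 2.42% in opposite directions. Of the 4, SOD1 and PRDX4 were weakly held in DU145: without DU145 vehicle replicate 3, with library size alone or with all 12 samples in one fit, both lost their call and the 5 lower members became 3. The members are described below from superoxide to peroxide, by compartment.

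SOD2, the manganese superoxide dismutase of the mitochondrial matrix, fell steeply in DU145 and was not called in PC3. Its CPM in the DU145 vehicle samples was 497, 484 and 477, and in the DU145 pentamidine samples 154, 164 and 162. Every treated DU145 sample thus lay far under every vehicle sample, and the samples within each group lay close together. In PC3 cells the vehicle samples had 279, 289 and 289 CPM and the pentamidine samples 263, 264 and 280.2 CPM. The PC3 groups overlapped, with one treated sample above the lowest vehicle sample. In DU145 the fold change was 0.330 (log2 fold change -1.60, SE 0.034, 95% confidence interval -1.67 to -1.53, adjusted p 2.1e-40). Only 87 of the 14313 genes tested in DU145 had a larger absolute change, and SOD2 was the 1 member past the study's threshold, which 2.03% of genes passed in DU145 (0.657% as lower), 290 genes with edgeR but 155 with DESeq2. In PC3 the log2 fold change was -0.08 (SE 0.048, 95% confidence interval -0.18 to 0.02, adjusted p 0.195).

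The difference between the lines was tested itself, as the interaction of treatment and line. For SOD2 the PC3 change minus the DU145 change was 1.52 on the log2 scale (SE 0.058, adjusted p 6.6e-17), and it stayed between 1.45 and 1.54 under the alternatives run. DU145 vehicle samples had started higher: SOD2 in PC3 was 0.578 times that in DU145 without the drug (log2 difference -0.79, SE 0.044, adjusted p 1.3e-10). With pentamidine the order turned round, with means of 269 ± 9.55 CPM in PC3 and 160.0 ± 5.15 CPM in DU145 (SD, n = 3). Set against SOD1 within each sample, SOD2 had 265 ± 6.58 counts per 100 SOD1 counts in DU145 vehicle samples and 95.3 ± 10.1 in DU145 pentamidine samples. The same ratio was 125 ± 7.81 in PC3 vehicle samples and 146 ± 8.06 in PC3 pentamidine samples. So the balance of the mitochondrial and the cytosolic enzyme's mRNA moved in opposite directions in the lines, although these ratios were not themselves tested. Counts of genes encoded by the mitochondrial genome also took a smaller share after treatment, from 3.85% ± 0.061 to 2.71% ± 0.049 in PC3 and from 4.54% ± 0.13 to 2.01% ± 0.058 in DU145. Their part in the SOD2 result was not tested, and leaving those genes out of the normalisation changed no member's call.

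The SOD2 gene as given in the count table (chr6:159669057-159762529, GRCh38, minus strand) reaches over other genes, which bears on its counts. On the opposite strand WTAP lies inside that span and ACAT2 overlaps its end with a small part, and the protocol described names no step that marks strand, so reads from overlapping parts cannot be assigned with certainty. ACAT2 held 56.7% as many counts as SOD2 over all samples and WTAP 32.8%, but the shares differed by group. Mean CPM of ACAT2 was 239 in PC3 vehicle, 287 in PC3 pentamidine, 79.8 in DU145 vehicle and 69.1 in DU145 pentamidine samples, beside 286, 269, 486 and 160.0 for SOD2. ACAT2 changed by a log2 fold change of 0.27 in PC3 (adjusted p 4.1e-04) and -0.20 in DU145 (adjusted p 0.00101). Its interaction of 0.47 (adjusted p 9.2e-06) had the sign of that of SOD2. WTAP had log2 fold changes of -0.05 in PC3 (adjusted p 0.547) and -0.10 in DU145 (adjusted p 0.0939), the latter called only without DU145 pentamidine replicate 3 (adjusted p 0.0331 without it), and an interaction of 0.05 (adjusted p 0.753). The part of these 2 genes in the SOD2 result was not tested. The span was longer than the one in GENCODE release 29, which gave the same position for the other 9 of the 10 members.

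SOD1, the copper-zinc superoxide dismutase of the cytosol and intermembrane space, decreased more modestly. In PC3 it went from 229 ± 13.4 to 184 ± 6.46 CPM (SD, n = 3) with no overlap (log2 fold change -0.31, SE 0.054, adjusted p 2.2e-04). In DU145 its pentamidine samples, at 184, 167 and 156 CPM, overlapped vehicle samples at 183, 185 and 183 CPM. The DU145 log2 fold change was -0.12 (SE 0.041, adjusted p 0.0207), and the call was lost without DU145 vehicle replicate 3 (adjusted p 0.0553), without DU145 pentamidine replicate 2 (0.0794) and without DU145 pentamidine replicate 3 (0.245). It was also lost with DESeq2 (adjusted p 0.0552), with library size alone as the scaling (0.206) and with all 12 samples in one fit (0.0913), so the DU145 change of SOD1 is weakly held. The interaction of SOD1 was not called (-0.19, SE 0.073, adjusted p 0.0698), but was called without PC3 vehicle replicate 2 (adjusted p 0.0307), without DU145 pentamidine replicate 3 (0.0228) and with library size alone (0.00882).

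Catalase, the peroxisomal enzyme that splits hydrogen peroxide without a reducing partner, rose in both lines. In PC3 the vehicle samples had 49.9, 57.3 and 53.3 CPM and the pentamidine samples 99.4, 105 and 100.3 CPM. In DU145 the vehicle samples had 33.0, 34.6 and 35.1 CPM and the pentamidine samples 44.1, 46.8 and 45.0 CPM. All treated samples lay above all vehicle samples of the same line, and the gap was far wider in PC3. The fold change was 1.91 in PC3 (log2 fold change 0.93, SE 0.064, adjusted p 3.8e-09) and 1.33 in DU145 (log2 fold change 0.41, SE 0.063, adjusted p 6.3e-07). The rise was larger in PC3, with an interaction of 0.52 on the log2 scale (SE 0.085, adjusted p 3.8e-05). PC3 also had more CAT before treatment (log2 difference 0.62, SE 0.072, adjusted p 1.1e-06), so the gap between the lines was wider with pentamidine than with vehicle.

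**Figure D2:**
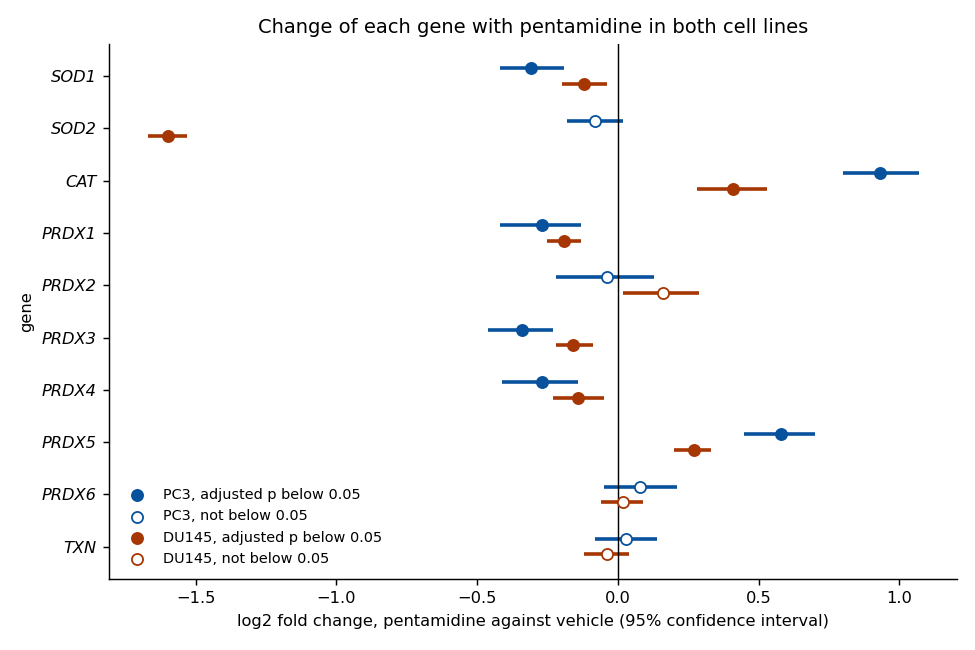
Log2 fold change of pentamidine against vehicle (x axis) for each of the 10 genes (y axis) in PC3 and DU145, with 95% confidence intervals; filled points have an adjusted p below 0.05. SOD2 stands apart at -1.60 in DU145 against -0.08 in PC3, while CAT (0.93 and 0.41) and PRDX5 (0.58 and 0.27) lie to the right in both lines.

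PRDX5, an atypical peroxiredoxin found in mitochondria, peroxisomes and cytosol, was the other member that rose. Its CPM was 156, 169 and 182 in PC3 vehicle samples and 258, 252 and 244 in PC3 pentamidine samples. DU145 vehicle samples had 368, 356 and 355 CPM and DU145 pentamidine samples 444, 425 and 426 CPM. Groups did not overlap in either line, and even the treated PC3 samples stayed under the untreated DU145 samples. The fold change was 1.49 in PC3 (log2 fold change 0.58, SE 0.058, adjusted p 4.9e-07) and 1.20 in DU145 (log2 fold change 0.27, SE 0.032, adjusted p 1.0e-09). The interaction was 0.31 on the log2 scale (SE 0.065, adjusted p 8.5e-04), the rise being larger in PC3 as it was for CAT.

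PRDX3, the typical peroxiredoxin of the mitochondrial matrix, fell in both lines, opposite to PRDX5. It went from 299 ± 19.3 to 235 ± 6.43 CPM in PC3 (log2 fold change -0.34, SE 0.055, adjusted p 8.4e-05) and from 318 ± 6.08 to 284 ± 3.71 CPM in DU145 (log2 fold change -0.16, SE 0.033, adjusted p 1.2e-04). The groups did not overlap in either line. The fall was called larger in PC3 (interaction -0.19, SE 0.062, adjusted p 0.0327), yet that call did not stand when samples were left out: 10 of 12 such fits lost it, with an adjusted p of up to 0.112 without DU145 vehicle replicate 3. Of those fits, only the ones without PC3 vehicle replicate 1 and without PC3 pentamidine replicate 2 kept it, and DESeq2 (0.0538), RLE size factors (0.0553) and no filter on low counts (0.0640) lost it as well.

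PRDX1, an abundant cytosolic peroxiredoxin, and PRDX4, which works in the endoplasmic reticulum, fell slightly in both lines. PRDX1 had 589, 718 and 723 CPM in PC3 vehicle samples and 548, 579.6 and 547 CPM in PC3 pentamidine samples. The first vehicle sample lay well under the other two, just above the treated ones. The log2 fold change of PRDX1 was -0.27 in PC3 (SE 0.068, adjusted p 0.00352) and -0.19 in DU145 (SE 0.030, adjusted p 1.0e-06), and the call held under every alternative run in both lines. Its interaction was not called (-0.08, SE 0.075, adjusted p 0.504), except without PC3 vehicle replicate 1 (-0.17, adjusted p 0.0182). For PRDX4 the log2 fold change was -0.27 in PC3 (SE 0.066, adjusted p 0.00264) and -0.14 in DU145 (SE 0.046, adjusted p 0.0157). In DU145 that call was lost without DU145 vehicle replicate 3 (adjusted p 0.121), without DU145 pentamidine replicate 1 (0.0501), with library size alone (0.139) and with all 12 samples in one fit (0.0523). MMACHC overlaps PRDX1 on the opposite strand and held 4.49% as many counts. It fell in PC3 too (-0.31, adjusted p 0.0123, lost without PC3 vehicle replicate 2, PC3 pentamidine replicate 1 or PC3 pentamidine replicate 3, with an adjusted p of up to 0.0750) and was not called in DU145 (adjusted p 0.438).

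PRDX2 and PRDX6, both cytosolic, and TXN, the cytosolic electron donor, were called in neither line. Their log2 fold changes in PC3 were -0.04 for PRDX2 (SE 0.082, 95% confidence interval -0.22 to 0.13), 0.08 for PRDX6 (SE 0.062, -0.05 to 0.21) and 0.03 for TXN (SE 0.054, -0.08 to 0.14). In DU145 they were 0.16 for PRDX2 (SE 0.067, 0.02 to 0.29), 0.02 for PRDX6 (SE 0.036, -0.06 to 0.09) and -0.04 for TXN (SE 0.038, -0.12 to 0.04). For PRDX6 and TXN no limit of these 95% confidence intervals lay beyond 0.21 in either direction. PRDX2 in DU145 went from 32.5 to 33.9 CPM with vehicle to 34.5 to 38.6 CPM with pentamidine, without overlap (adjusted p 0.0593), and it was called without DU145 pentamidine replicate 3 (adjusted p 0.0321) and with library size alone (0.0117). HOOK2 overlaps PRDX2 on the same strand and held 27.7% as many counts, so reads could be split between them. Its log2 fold change was -0.19 in PC3 (adjusted p 0.256) and 0.25 in DU145 (adjusted p 0.0407, lost in 4 of the 6 fits that left out a sample, with values up to 0.132). The interaction of HOOK2 was -0.44 (adjusted p 0.0448), a call lost in 10 of the 12 fits that left out a sample. That of PRDX2 was -0.20 and not called (adjusted p 0.205). Of pseudogenes, 10 were listed for the members, and the most abundant held 0.267% as many counts as its parent gene; how reads were shared between them was not tested.

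Without the drug the lines differed in most members, but so did they in most genes. With an adjusted p below 0.05 alone, 8 of the 10 differed, beside 65.3% of 14394 genes, with 4 higher in PC3 (31.5% of genes) and 4 higher in DU145 (33.8%). Groups did not overlap for 8 members, as for 69.1% of genes. Only PRDX5 also passed an absolute log2 difference of 1, as 19.2% of genes did (11.7% as higher in DU145), at -1.11 for PC3 against DU145 (SE 0.056, adjusted p 3.6e-11). PRDX2 was higher in PC3 (0.87, SE 0.076, adjusted p 4.0e-08), and so were SOD1 (0.29) and TXN (0.20). PRDX4 (-0.37) and PRDX6 (-0.36) were higher in DU145, whereas PRDX1 (0.03, adjusted p 0.714) and PRDX3 (-0.12, adjusted p 0.0582) were not called. Single choices changed this: PRDX1 was called without PC3 vehicle replicate 1 (adjusted p 0.00811), and PRDX3 without PC3 vehicle replicate 3 (0.0120) and with the replicate block (0.0462). The lines therefore set out with different mixtures: more SOD2 and PRDX5 mRNA in DU145, more CAT and PRDX2 mRNA in PC3. The interaction was called for 4 of the 10 members, beside 20.4% of 15226 genes, with the PC3 change above the DU145 change for 3 (10.2% of genes) and under it for 1 (10.3%).

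Levels can be set side by side between genes only per length, here as CPM per kilobase of the shortest principal protein-coding transcript. PRDX1 was the most abundant in each of the 4 groups, from 547 ± 18.0 CPM per kilobase in PC3 pentamidine samples to 663 ± 74.4 in PC3 vehicle samples. CAT was the least abundant, from 15.0 ± 0.489 in DU145 vehicle samples to 44.4 ± 1.41 in PC3 pentamidine samples. In PC3 vehicle samples the order from high to low was PRDX1, SOD2, TXN, SOD1, PRDX5, PRDX3, PRDX6, PRDX4, PRDX2 and CAT. The samples of PRDX5 and PRDX3 overlapped there, as did those of PRDX4 and PRDX2, and no other neighbours did. With pentamidine PRDX5 moved up to stand with TXN and SOD2, at 282, 274 and 272 CPM per kilobase, whose samples overlapped from one to the next, and PRDX2 and PRDX4 overlapped as well. In DU145 vehicle samples SOD2 came after PRDX1, at 491 ± 10.1 CPM per kilobase, followed by PRDX5 at 403 ± 7.98, TXN, PRDX3, SOD1, PRDX6, PRDX4, PRDX2 and CAT, with no overlap between neighbours. With pentamidine SOD2 dropped to 162 ± 5.20, where it overlapped SOD1 at 175 ± 14.4, which in turn overlapped PRDX3 at 179 ± 2.33. The place of SOD2 depends on the length taken for it: the main transcript has 990 bases and the longest protein-coding one 14266. With the shortest protein-coding transcripts SOD2 ranked 3 in both pentamidine groups. With the longest, an alternative chosen after seeing the data, SOD2 ranked 10 in PC3 vehicle and in both pentamidine groups and 8 in DU145 vehicle samples, and PRDX5 took rank 1 from PRDX1 in DU145 pentamidine samples.

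**Figure D3:**
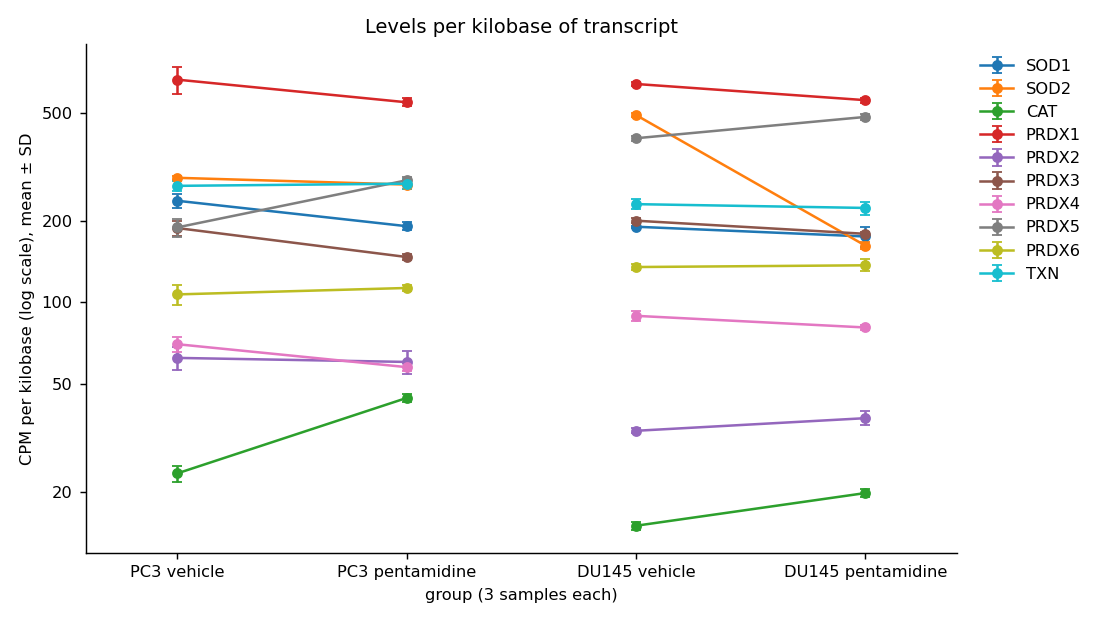
Mean CPM per kilobase of transcript (log axis, ± SD of 3 samples) of the 10 genes in the 4 groups on the x axis; lines join vehicle and pentamidine within a line. SOD2 crosses the means of 4 other genes in DU145 on its way from 491 to 162, and CAT stays lowest throughout although it climbs from 23.4 to 44.4 in PC3.

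SOD2 and CAT had the widest ranges of group means, and the genes most like them were sought over the 12 samples, which form only 4 groups. For SOD2, among 4440 candidate genes, these were CXCL1 (Pearson r 0.980 of log2 CPM), a chemokine, IRAK2 (0.971), a kinase of interleukin receptor signalling, and TNIP1 (0.923), a ubiquitin-binding adaptor. CXCL1 fell from 337 ± 13.4 to 57.0 ± 3.54 CPM in DU145 (log2 fold change -2.56, SE 0.04, adjusted p 6.4e-46) and from 178 ± 7.98 to 119 ± 3.74 CPM in PC3 (-0.57, SE 0.05, adjusted p 1.6e-07). IRAK2 had log2 fold changes of -1.19 in DU145 (adjusted p 9.0e-21) and -0.24 in PC3 (adjusted p 0.0206, lost without PC3 vehicle replicate 3 at 0.103 and without PC3 pentamidine replicate 1 or PC3 pentamidine replicate 2). TNIP1 changed by -0.82 in DU145 (adjusted p 1.1e-21) and -0.01 in PC3 (adjusted p 0.842), the pattern of SOD2 itself. For CAT, among 4604 candidates, the closest were NCOA7 (r 0.994), a nuclear receptor coactivator, FLYWCH1 (0.992), a zinc finger protein, and WIPI1 (0.992), a protein of autophagosome formation. NCOA7 rose by a log2 fold change of 1.23 in PC3 (adjusted p 1.3e-10) and 0.56 in DU145 (adjusted p 1.4e-08), and FLYWCH1 by 0.91 (6.3e-10) and 0.40 (2.2e-09). WIPI1 rose by 0.99 in PC3 (adjusted p 1.4e-05) and 0.53 in DU145 (adjusted p 0.0235, lost in 3 of the 6 fits that left out a sample, with values up to 0.105). Likeness over so few groups is a description of pattern alone.

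**Figure D4:**
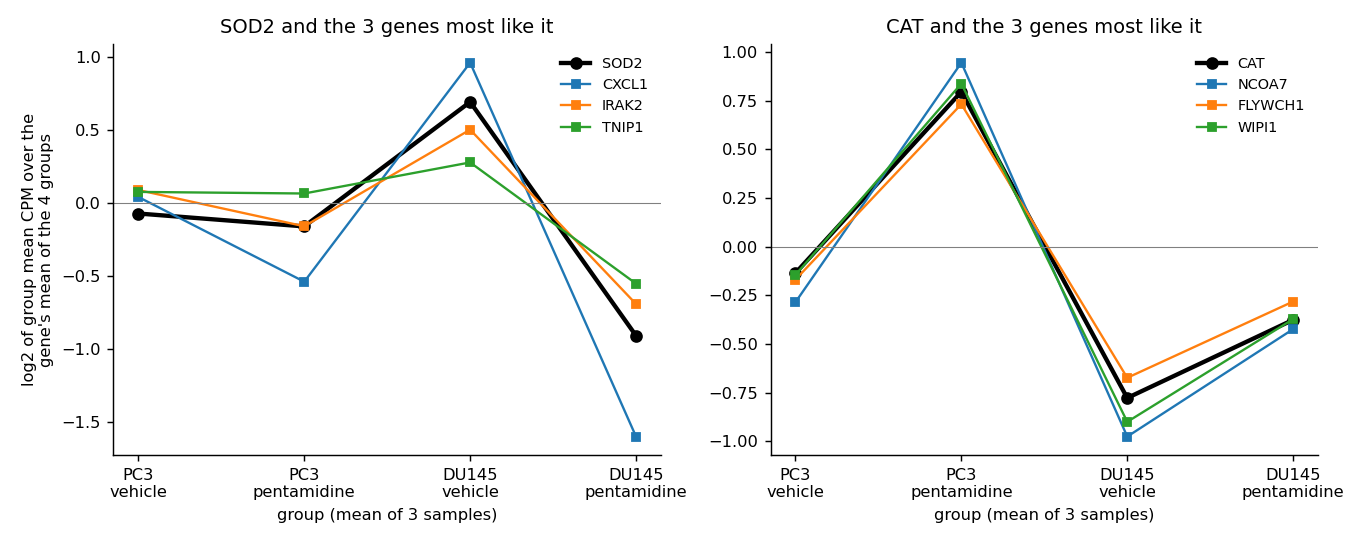
Log2 of each gene's group mean CPM over its mean of the 4 groups (y axis), for SOD2 (left) and CAT (right) in black and the 3 genes most like each in colour, across the groups on the x axis. CXCL1, IRAK2 and TNIP1 peak with SOD2 in DU145 vehicle samples and are lowest in DU145 pentamidine samples, and NCOA7, FLYWCH1 and WIPI1 peak with CAT in PC3 pentamidine samples.

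Stretches before the main transcripts of SOD2 and CAT are shown because these genes moved most. RefSeq promoter sequences (GRCh38.p14) were matched for 7 of the 10 members, and the 250 bases before the start nearest to the main transcript were searched on both strands for 5 motifs. These were the antioxidant response core TGACNNNGC, the GC box GGGCGG, the CCAAT box CCAAT, the C/EBP-ATF element TGATGNAA and the E-box CACGTG, which 10.9%, 42.6%, 32.0%, 3.1% and 6.3% of 35116 promoters held in the same window. Below, each stretch runs from 5′ to 3′ up to the first annotated exon it reaches, and capitals mark matches. CCGCCC and ATTGG are the GC and CCAAT boxes read on the other strand. The SOD2 stretch lies inside the span given above for the gene, before an internal start near that of the main transcript.
SOD2, chr6:159693329-159693491, minus strand: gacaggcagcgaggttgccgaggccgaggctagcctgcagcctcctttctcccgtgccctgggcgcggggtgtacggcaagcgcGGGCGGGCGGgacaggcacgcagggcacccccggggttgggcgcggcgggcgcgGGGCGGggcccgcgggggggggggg
CAT, chr11:34438684-34438924, plus strand: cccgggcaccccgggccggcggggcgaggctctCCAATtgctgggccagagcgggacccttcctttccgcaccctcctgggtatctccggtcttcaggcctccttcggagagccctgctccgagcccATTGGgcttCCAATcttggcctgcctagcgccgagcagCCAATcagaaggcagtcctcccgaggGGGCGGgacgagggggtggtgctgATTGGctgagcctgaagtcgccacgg
The whole SOD2 window was 80.8% G and C and held 6 GC boxes, some of which overlap, 3 of them in the printed stretch, and no CCAAT box. The CAT window held 5 CCAAT boxes and 1 GC box. Each of the 7 windows had a GC box, PRDX3 and PRDX4 also had an E-box, and the letters of the antioxidant response core and of the C/EBP-ATF element were found in 0 of the 7. A match is only a match of letters, and a missing one says nothing of a factor acting elsewhere.

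The enzymes that feed or flank the members were read from 5 lists, beside all genes tested, of which 43.4% were called in PC3 (21.7% higher, 21.7% lower) and 34.0% in DU145 (17.2% and 16.8%). In the thioredoxin system 2 of 7 genes tested were called higher and 1 lower in PC3, and 2 of 5 higher and 0 lower in DU145, with median log2 fold changes of 0.04 and 0.15 beside 0.00 and 0.01 over all genes. TXNRD1, the cytosolic reductase that recharges thioredoxin, rose in PC3 from 376 to 826 CPM (log2 fold change 1.14, SE 0.045, adjusted p 1.9e-12) and in DU145 from 378 to 587 CPM (0.64, SE 0.031, adjusted p 5.7e-24), while TXN itself was not called. TXNIP, which binds and inhibits thioredoxin, rose in PC3 from 0.900 to 8.16 CPM (log2 fold change 3.19, SE 0.22, adjusted p 3.6e-09). In DU145 it was too low to test, with at most 1 count in any sample. The TXNIP interaction was not called (0.52, SE 0.79, adjusted p 0.717), but with so few DU145 counts that test cannot decide whether the lines differ. NNT, the mitochondrial transhydrogenase that supplies NADPH, fell in PC3 (-0.32, adjusted p 0.00106) and was not called in DU145 (0.15, adjusted p 0.0560, called under 1 alternative). TXN2, the mitochondrial thioredoxin, was called in DU145 (0.14, adjusted p 0.0118) and not in PC3 (0.04, adjusted p 0.704), but its interaction was not called (-0.10, adjusted p 0.549). The DU145 call was lost without DU145 vehicle replicate 1 or DU145 pentamidine replicate 1 (adjusted p up to 0.119).

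Among glutathione peroxidases and glutaredoxins, which remove peroxides and restore thiols with glutathione, 4 of 9 genes tested were higher and 2 lower in PC3, and 3 higher and 2 lower of 9 in DU145 (of all genes 21.7% were higher and 21.7% lower in PC3, 17.2% and 16.8% in DU145). Their medians were 0.16 and 0.00. GPX8, a peroxidase of the endoplasmic reticulum, rose in both lines, by a log2 fold change of 1.49 in PC3 (SE 0.20, adjusted p 1.2e-05), where it was scarce at 2.00 CPM with vehicle, and by 0.74 in DU145 (SE 0.067, adjusted p 2.3e-13). GPX4, which reduces lipid peroxides, rose by 0.25 in PC3 (adjusted p 0.00546) and 0.16 in DU145 (adjusted p 3.2e-04). GPX1 was called in DU145 (0.19, adjusted p 9.7e-06) and not in PC3 (0.16, adjusted p 0.0719, called at 0.00242 without PC3 vehicle replicate 3), with no interaction called (-0.03, adjusted p 0.853). In PC3 and not in DU145, GLRX (1.16, adjusted p 0.00164), GLRX2 (0.33, adjusted p 0.00488) and GLRX5 (-0.30, adjusted p 0.00149) were called. GLRX was scarce, at 1.28 CPM in PC3 vehicle and 2.87 CPM in PC3 pentamidine samples. GLRX2 had no interaction called (0.33, adjusted p 0.0628), except without PC3 vehicle replicate 1 (adjusted p 0.0414) and with RLE size factors. GPX3, at 1.91 CPM in DU145 vehicle samples, fell there (-0.83, adjusted p 0.0342), a call lost in 4 of the 6 fits that left out a sample (adjusted p up to 0.139), and its interaction was not called (adjusted p 0.262).

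Partners of the superoxide dismutases were read from 3 genes, SOD3 being not analysed here. In PC3 1 of the 3 was higher, 1 lower and 1 not called, and in DU145 1 was higher, beside 43.4% and 34.0% of all genes called, with medians of 0.15 and -0.03. SLC31A1, the copper importer, rose in PC3 (log2 fold change 0.47, SE 0.060, adjusted p 8.0e-06) and not in DU145 (-0.03, adjusted p 0.850). ATOX1, a copper chaperone, fell in PC3 (-0.29, adjusted p 0.0180), and CCS, which loads copper into SOD1, rose in DU145 (0.20, adjusted p 0.0178). Both calls were fragile, being lost in 4 of 6 fits without a sample for ATOX1 (adjusted p up to 0.0933) and in 3 of 6 for CCS (up to 0.172), and neither interaction was called (adjusted p 0.342 and 0.807).

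Catalase is carried into peroxisomes by a set of import proteins. Of 8 peroxisomal import genes, 1 was called in PC3 and 1 in DU145, both higher, where 43.4% and 34.0% of all genes were called, with medians of 0.13 and -0.04. PEX5, the receptor that brings in most matrix proteins including catalase, rose in PC3 (log2 fold change 0.35, SE 0.065, adjusted p 3.1e-04) and not in DU145 (0.01, adjusted p 0.922). PEX10, a ubiquitin ligase of the peroxisomal membrane, rose in DU145 (0.25, adjusted p 0.0106, lost without DU145 vehicle replicate 1 or DU145 pentamidine replicate 3, up to 0.0943), with no interaction called (adjusted p 0.683). The rise of CAT mRNA in both lines therefore came with a rise of its import receptor's mRNA in one of them.

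Among sources of oxidants, 12 of 13 listed genes were in the table, MAOB being not analysed here. Of these 12, 6 were expressed enough to test in PC3 and 7 in DU145. In PC3 2 of 6 tested were higher and 1 lower, and in DU145 1 of 7 was higher and 3 lower, beside 43.4% and 34.0% of all genes called, with medians of 0.18 and -0.11. ERO1A, the oxidase that makes peroxide during disulfide formation in the endoplasmic reticulum, fell in PC3 (log2 fold change -0.42, SE 0.062, adjusted p 3.5e-05). It fell slightly in DU145 (-0.11, adjusted p 0.0369, lost in 4 of 6 fits without a sample, up to 0.167). Of that compartment, PRDX4 moved in the same direction, weakly held in DU145, whereas GPX8 rose in both lines. ERO1B fell in DU145 (-0.47, adjusted p 4.8e-04; interaction 0.22, adjusted p 0.455). XDH, which encodes xanthine dehydrogenase, rose in PC3 from 1.03 to 2.19 CPM (1.09, adjusted p 0.00418), and the oxidase DUOX1 rose in DU145 from 1.13 to 2.48 CPM (1.13, adjusted p 0.00251; interaction -0.58, adjusted p 0.413). CYBA, a subunit of NADPH oxidases, rose in PC3 (0.23, adjusted p 0.0251, lost in 4 of 6 fits without a sample, up to 0.117), and MAOA, a monoamine oxidase, fell in DU145 (-0.49, adjusted p 0.0274, lost in 3 of 6, up to 0.106). NOX1, NOX4, NOX5, CYBB and DUOX2 had means under 1 CPM in all groups.

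**Figure D5:**
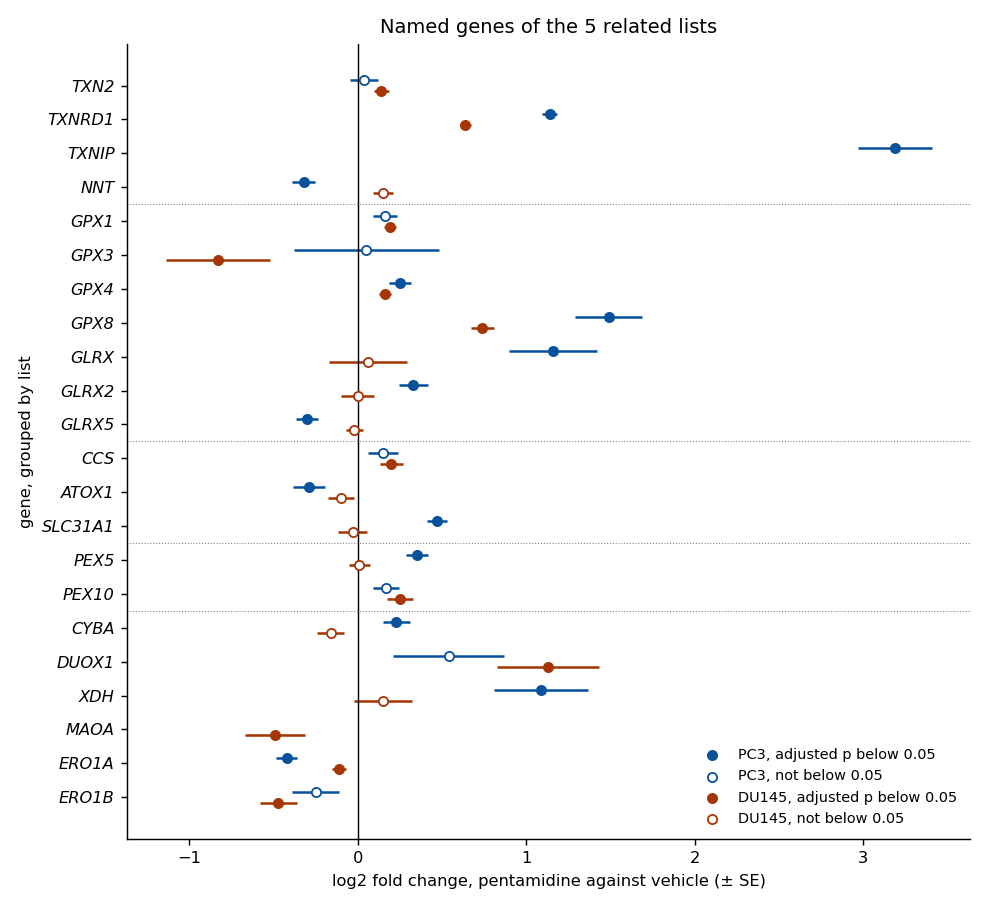
Log2 fold change of pentamidine against vehicle (x axis, ± SE) in PC3 and DU145 for the named genes of the 5 lists (y axis, dotted lines between lists); filled points have an adjusted p below 0.05, and genes too low to test in a line have no point for it. TXNRD1 and GPX8 rose in both lines and more in PC3, and TXNIP in PC3 had the largest change plotted, 3.19.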

How the data were processed

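The table used here holds raw counts of reads for each gene, as deposited. Per the submitters' notes, reads were aligned with HISAT2 2.1.0 to GRCh38, and DESeq 1.18.1 was used; the counting program, its use of strand and its annotation release are not given in the sources used here. A second table of the authors, named for FPKM, held counts scaled to the library total and was not used, nor were their comparison tables, which hold fold changes and p-values. Genes of the same name and counts were merged, leaving 32077. Counts of the 12 samples were normalised by TMM (CPM; log2 CPM with a prior count of 2), filtered with a minimum count of 10 (filterByExpr) and tested with edgeR 4.0.16 in R 4.3.3, after a test on simulated data. Each line, the vehicle groups and the interaction (all 12 samples) had a fit. SE is the log2 fold change over the root of F. Lengths came from GENCODE release 29. Replicates differed by more than sampling noise (mean chi-square per gene 1.72 to 7.30 over 12 pairs). The value was highest in PC3 vehicle samples, at 5.98 and 7.30 for the pairs with replicate 1 and 3.64 for the other pair. All members were named, and per list and line up to 4 genes with the largest absolute log2 fold change among those called with a mean CPM of at least 1. For the 2 members with the widest range of group means, the 3 most correlated genes with at least 0.5 times that range were named. Overlapping genes and pseudogenes were named from 1% of a member's counts. Members and lists were chosen with earlier results of these data known, and some genes first listed are not reported here. Alternatives were DESeq2 1.42.0, RLE, library size alone, normalisation without mitochondria-encoded genes, no filter, a replicate block, all 12 samples in one fit, each sample left out, adjusted p below 0.01, and other transcript lengths.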

Additional observations from a re-analysis of the deposited data

Results flagged for a closer look

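The change with pentamidine differed between PC3 and DU145, by edgeR's test of the interaction (PC3 change minus DU145 change on the log2 scale), for 4 of the 10 members and 11 of 35 genes tested of the lists, beside 20.4% of 15226 genes. For SOD2 it was 1.52 (adjusted p 6.6e-17), for CAT 0.52 (3.8e-05), for PRDX5 0.31 (8.5e-04) and for PRDX3 -0.19 (0.0327, lost without 10 of the 12 samples in turn). TXNRD1 differed by 0.50 (3.2e-08), NNT by -0.46 (2.2e-04), SLC31A1 by 0.49 (7.9e-04), PEX5 by 0.34 (0.00580), GPX8 by 0.75 (0.00378), ERO1A by -0.31 (0.00382) and GLRX by 1.10 (0.0183, up to 0.0499 with a sample left out, and lost with DESeq2). A further 4 did not hold when single samples were left out: GLRX5 at -0.28 (0.0195, lost in 4 of 12 such fits), CYBA at 0.39 (0.0194, 3 of 12), XDH at 0.94 (0.0366, 8 of 12) and MAOA at 1.60 (0.0344, 6 of 12, with under 1 CPM in PC3).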

How the results depend on the processing

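Over 610 values of the members under the alternatives, 578 stayed on the same side of the threshold, 26 lost a call, 6 gained one and 0 reversed a call. Values not called changed sign in places, as for PRDX2 in PC3 (-0.11 to 0.04) and PRDX6 in DU145 (-0.03 to 0.07). Between vehicle groups this tally asks for an absolute log2 difference above 1 as well, and there, as in PC3, all 140 values stayed on their side. With adjusted p below 0.05 alone, PRDX1 (0.00811 at its lowest) and PRDX3 (0.0120) were called under some alternatives. In DU145 the number of members called lower, 5, was 3 with library size alone, with all 12 samples in one fit and at adjusted p below 0.01, and ran from 3 to 5 with samples left out, 3 being without DU145 vehicle replicate 3. Genes past a log2 fold change of 1 in DU145 numbered 290 with edgeR and 155 with DESeq2. The interaction had 3112 genes called and 1996 at adjusted p below 0.01. Members called with the PC3 change under the DU145 change, 1 (PRDX3), were 0 with DESeq2, RLE size factors, no filter and adjusted p below 0.01, 2 with library size alone, and 0 to 2 with samples left out. The stricter threshold calls fewer genes by construction; the cause of the others was not tested.

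Replicate numbers showed no clear pairing of the samples, though 3 samples per group cannot show that there was none. Correlations of deviations of the same number were -0.033, 0.043 and -0.14 in PC3, -0.023, 0.024 and 0.0018 in DU145 and 0.067, 0.043 and -0.0097 between vehicle groups. Those of different numbers ran from -0.14 to 0.17 in PC3, -0.043 to 0.040 in DU145 and -0.068 to 0.038 between vehicle groups. With the replicate block, genes called went from 6010 to 5599 in PC3, 4860 to 4794 in DU145, 3112 to 2803 for the interaction and, with an absolute log2 difference above 1, 2768 to 2773 between vehicle groups. No member's call changed by these rules; with adjusted p below 0.05 alone, PRDX3 was called between vehicle groups (0.0462). Library size alone moved the median log2 fold change of all genes in DU145 from 0.01 to 0.06 and the median interaction from -0.01 to -0.08. The members had at least 443 counts per sample; what depth limits was not tested.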
